A study of Mnemiopsis leidyi with 40 samples.

Results

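The comparison described here sets 6 embryos aged 4, 4.5 and 5 h against 4 embryos aged 2 and 3 h, all of the comb jelly (ctenophore) Mnemiopsis leidyi and each sequenced singly. They were chosen by their labelled developmental time and are 10 of the 40 embryos of the series, which samples 20 times from 0 to 20 h with 2 embryos at each. No treatment or strain is given in the labels, so age is the labelled difference between the groups. At each time 1 embryo was sequenced in library pool 6 and the other in pool 12, named here after their Illumina index numbers, so each pool holds 3 later and 2 earlier embryos. RNA was counted by CEL-Seq, a method in which each embryo's RNA carries its own barcode through a linear amplification before the 3′ ends of transcripts are read. Nothing in the labels says whether the embryos came from separate spawnings, so p-values measure the spread between these embryos.

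An animal egg is loaded with maternal messenger RNA, and the first divisions of the embryo run on this store. The embryo's own genome is switched on later, in a handover that is called the maternal-to-zygotic transition. Typically a limited set of genes is transcribed first, from low or no previous RNA, while parts of the maternal store are degraded. Ctenophore embryos cleave in a stereotyped pattern in which blastomeres take on different fates early, and they gastrulate within hours of fertilization.

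The 10 embryos held 18751729 reads in gene models, between 580587 and 3212300 each, and the shallowest was 4 h replicate 1, where 3 reads correspond to 5.17 CPM (counts per 1000000 gene reads). The next lowest total was 1002174 reads. The gene model IDs (ML, digits and a letter) matched none of the names in the RefSeq gene table, so genes are given by ID, without function, and no sequence is shown for them. All CPM values of the 10 embryos are scaled by TMM, which sets libraries against each other by the bulk of their genes. The values are relative within an embryo, and more cells of a type or more RNA per cell cannot be told apart in a whole embryo.

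The later embryos differed in how close they were to the earlier ones. Over the 5854 genes tested, 4 h replicate 2 had Spearman correlations of 0.924 and 0.937 with the 2 h and 3 h embryos of its own pool, which had 0.925 with each other. It had 0.826 with the other 4 h embryo, which is shallow and in the other pool. The same pairing across pools gave 0.79 at 2 h, 0.897 at 3 h, 0.882 at 4.5 h and 0.91 at 5 h. In pool 6 the 4 h embryo had correlations of 0.822 and 0.838 with its 2 h and 3 h embryos, which had 0.972 with each other, while its 4.5 h embryo had 0.920 and 0.932, much as 4 h replicate 2 in pool 12. Each correlation is taken over genes and describes a pair of embryos. At the opposite end, 5 h replicate 2 had the lowest correlations with the earlier embryos of its pool, 0.674 and 0.757. Counts are also given without 4 h replicate 2, a choice made after its values were seen.

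The question of the comparison is which transcripts changed between 2 to 3 h and 4 to 5 h of development. The called changes were nearly all rises, many of them from near zero. Of 5854 genes tested, 149 changed (2.55%), of which 146 were higher and 3 were lower at 4 to 5 h (edgeR quasi-likelihood test with the pool as a block, adjusted p below 0.05 and at least a 2-fold change), which is 2.49% and 0.0512% of the genes tested. At an unadjusted p below 0.05, 569 genes (9.72%) were higher and 209 (3.57%) lower. The median gene that rose went from 0.864 CPM at 2 to 3 h to 36.0 CPM at 4 to 5 h, and the median fitted log2 fold change was 5.21 (range 1.15 to 9.02). In 107 of the 146 genes all 6 later embryos lay above all 4 earlier ones. That pattern was found in 160 genes of all tested (2.73%), and the same overlap-free difference downward in 51 (0.871%).

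The number of calls moved with single embryos. Without 4 h replicate 2 the test called 299 genes higher and 45 lower, and 144 of the 146 were again higher and all 3 again lower. With both 4 h embryos left out it called 233 and 42. Leaving out an earlier embryo lowered the number higher, to 75 and 76 for the 2 h embryos of pools 6 and 12 and to 71 and 68 for those of 3 h. Leaving out the 5 h embryo of pool 6 gave 89. Within pool 6 alone 93 genes were higher and 1 was lower. Pool 12 alone, which holds 4 h replicate 2, gave 0 calls by edgeR (lowest adjusted p = 0.161), with 478 of 5810 genes at an unadjusted p below 0.05. The median log2 fold change of the 146 genes was 4.98 in pool 6 and 5.28 in pool 12. As the genes were called on both pools together, large medians in each follow from the choice. The test of a difference in change between the pools called 0 of 5854 genes (edgeR interaction, lowest adjusted p = 0.926, 221 genes or 3.78% at an unadjusted p below 0.05) and 56 genes without the filter on low counts. It does not show that the pools changed alike. DESeq2 called 310 genes higher and 16 lower.

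**Figure D1:**
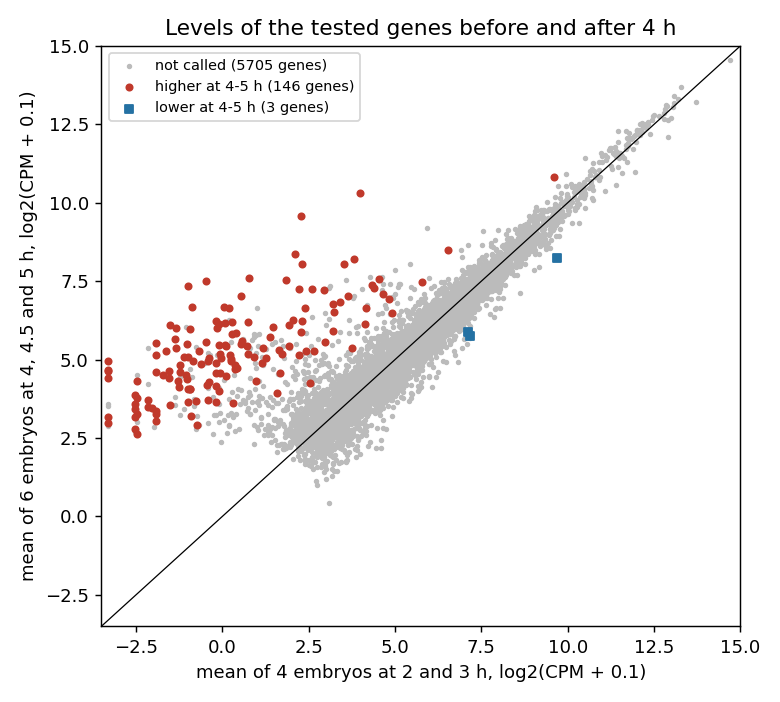
Mean level of each of the 5854 tested genes in the 4 embryos of 2 and 3 h (x axis) and in the 6 embryos of 4, 4.5 and 5 h (y axis), both as log2(CPM + 0.1). Red points are the 146 genes called higher, blue squares the 3 called lower, and the line marks equal levels. Most red points lie at the left, where genes had almost no reads at 2 to 3 h.

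The genes that rose fall into classes by how much RNA was there before. At 2 to 3 h 38 of the 146 genes had at most 3 reads in all 4 embryos together, and 6 of these had none. Another 91 had more reads but a mean below 10 CPM, and 17 had a mean of at least 10 CPM. Of all tested genes 80.6% had such a mean at 2 to 3 h. Only 52 tested genes had at most 3 reads there, and since they entered the test through their reads at 4 to 5 h, they could not have been called lower. Genes with more reads but a low level at 2 to 3 h could also pass the filter through 4 to 5 h alone. How many did so was not counted. The numbers called higher and lower therefore give no balance of directions among genes of low level.

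Among the near-silent genes ML034630a reached the highest level. It had 0.289, 0, 1.33 and 0 CPM in the earlier embryos (2 and 3 h of pool 6, then of pool 12). In the later ones it had 186, 234 and 159 CPM at 4, 4.5 and 5 h in pool 6, and 32.5, 244 and 124 CPM in pool 12. The groups did not overlap, and the lowest later value was that of 4 h replicate 2. With 3 earlier and 1467 later reads, the ratio of its shares of the reads was 518, with a 95% counting interval of 177 to 2515, and the adjusted p was 0.000296 (edgeR).

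ML32213a was already at its highest at 4 h in pool 6. The gene had 1.01 CPM in 3 h replicate 2 and no read in the other earlier embryos. It had 116, 100.2 and 73.5 CPM at 4, 4.5 and 5 h in pool 6 and 36.7, 62.6 and 27.3 CPM in pool 12. All 6 later values lay far above the earlier ones (2 against 563 reads, ratio 298, 95% counting interval 82.2 to 2468, edgeR adjusted p = 0.000296).

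In other genes of this class the values were ordered by age within 4 to 5 h, and the adjusted p beside them are those of the comparison with 2 to 3 h. ML216327a, with 1 read in the earlier embryos, had 8.79, 40.3 and 74.5 CPM at 4, 4.5 and 5 h in pool 6 and 6.23, 44.8 and 102 CPM in pool 12 (edgeR adjusted p = 0.00463). ML05793a had 5.27, 18.2 and 58.2 CPM in pool 6 and 6.92, 48.3 and 112 CPM in pool 12 (edgeR adjusted p = 0.00680). ML08108a had 17.6, 34.9 and 103 CPM and 5.54, 29.3 and 113 CPM (edgeR adjusted p = 0.00680). In these 3 genes the order of the ages was the same in each pool, and none exceeded 0.664 CPM at 2 to 3 h. Their slopes within 4 to 5 h did not pass the test (edgeR adjusted p = 0.116 for ML216327a and 0.114 for the other two).

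The remaining genes of highest level in this class were less regular. ML087212a was highest at 4.5 h in both pools, with 109 and 50.6 CPM, against 19.1 and 27.3 CPM at 5 h (edgeR adjusted p = 0.00494). ML31401a had no read in 4 h replicate 2 and between 12.3 and 61.7 CPM in the other 5 later embryos (edgeR adjusted p = 0.0145). ML22304a had 114 and 121 CPM in 4 h replicate 1 and 4.5 h replicate 2, but 5.90 CPM in 4.5 h replicate 1 and 1.38 CPM in 4 h replicate 2 (edgeR adjusted p = 0.0206). Its later embryos of the same age thus differed from each other more than those of ML216327a.

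**Figure D2:**
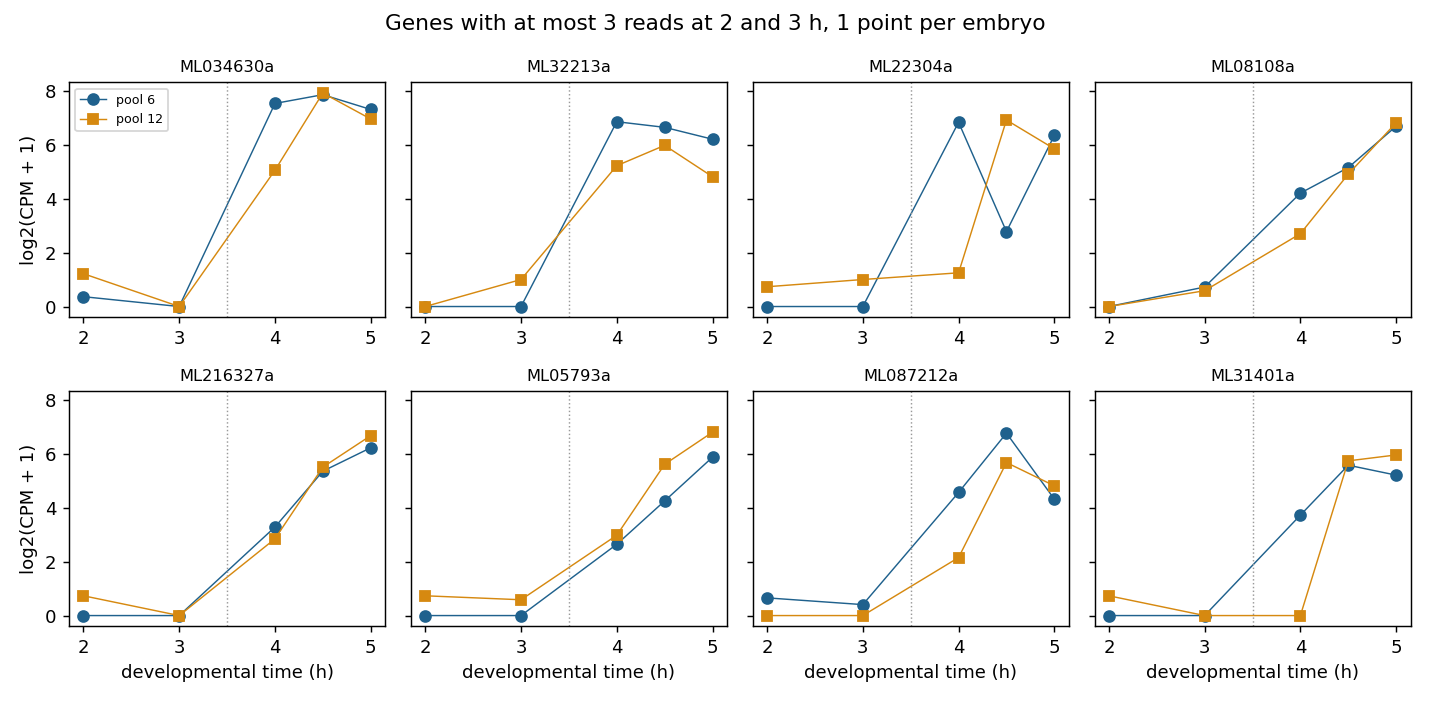
Level of the 8 genes of highest mean at 4 to 5 h among those that rose from at most 3 reads at 2 to 3 h, as log2(CPM + 1) against developmental time in h. Each point is 1 embryo, circles for pool 6 and squares for pool 12, and the dotted line separates the groups. In ML08108a, ML216327a and ML05793a the values are ordered by age from 4 to 5 h in both pools, with slopes that did not pass the test, and ML32213a has its highest value at 4 h in pool 6.

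The 6 genes without any read at 2 to 3 h were ML008118a, ML017937a, ML07493a, ML16524a, ML25071a and ML45844a. Against a floor of 3 reads over the 4 earlier embryos, they were at least 25.1-fold (ML07493a) to 101-fold (ML25071a) higher at 4 to 5 h. Their edgeR adjusted p ran from 0.00832 to 0.0427. ML008118a and ML25071a also had no read in at least 1 later embryo, so their groups touch at 0, while ML25071a reached 68.8 CPM in another. Between 1 and 7 reads of each were counted in the 4 embryos of 0 and 1 h.

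Of the 91 genes in between, the 3 of highest level were picked after their values were seen. ML30695a had 0.289, 1.30, 15.3 and 2.01 CPM in the earlier embryos. It reached 884, 987 and 853 CPM at 4, 4.5 and 5 h in pool 6 and 704, 810.2 and 319 CPM in pool 12. This gene was near its full level at 4 h in both pools, 4 h replicate 2 included (log2 fold change 7.66 ± 0.87, SE, edgeR adjusted p = 0.000592). ML135614a rose from 4.20 ± 3.68 (SD, n = 4) to 327 ± 133 CPM (SD, n = 6) and ML03025a from 4.80 ± 2.48 to 265 ± 120.2 CPM. The lowest adjusted p of the comparison belonged to ML091220a, at 8.25e-05 (edgeR). It rose from 1.34 ± 1.02 CPM (SD, n = 4) to 129 ± 43.2 CPM (SD, n = 6).

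Among the 17 genes with a clear level beforehand, ML26355a changed most. It had 2.89, 23.1, 23.9 and 13.1 CPM in the 2 h and 3 h embryos of pool 6 and then of pool 12. The later embryos had 1051, 1232 and 1373 CPM in pool 6 and 657, 2065 and 1217 CPM in pool 12. It had the highest level at 4 to 5 h of the 6 genes of this class described here, without overlap between the groups (log2 fold change 6.36 ± 0.60, SE, edgeR adjusted p = 0.000273).

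ML141712a had similar levels in the 4 earlier embryos, between 11.0 and 16.1 CPM. It had 202, 308 and 308 CPM in the later embryos of pool 6 and 126, 446 and 377 CPM in those of pool 12. Its log2 fold change of 4.38 ± 0.39 (SE) was 4.33 in pool 6 alone and 4.43 in pool 12 alone (edgeR adjusted p over both pools = 0.000201). The pools thus gave almost the same size of change for this gene.

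ML12427a and ML01739a had lower values at 2 h than at 3 h. ML12427a had 0.578 and 2.66 CPM at 2 h and 18.6 and 23.6 CPM at 3 h, before 146 to 420.1 CPM at 4 to 5 h (log2 fold change 4.53 ± 0.78, SE, edgeR adjusted p = 0.0100). ML01739a had 1.16 and 2.66 CPM at 2 h, 23.8 and 14.1 CPM at 3 h and 87.9 to 143 CPM later (log2 fold change 3.40 ± 0.67, SE, edgeR adjusted p = 0.0206). In both genes each 3 h embryo lay above each 2 h embryo, but the step from 2 to 3 h passed the test for no gene.

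ML13174a and ML065739a differed between the pools before 4 h. ML13174a had 39.9 and 43.0 CPM in the earlier embryos of pool 6 against 2.66 and 6.54 CPM in those of pool 12. It then had 151, 312 and 316 CPM in pool 6 and 33.2, 150.0 and 187 CPM in pool 12. ML065739a had 44.5 and 35.2 CPM against 0 and 4.02 CPM beforehand, and 79.1, 222 and 389 CPM against 26.3, 83.9 and 129.5 CPM afterwards. Within each pool every later embryo exceeded both earlier ones, although the groups overlapped over the pools, since 4 h replicate 2 lay below the earlier embryos of pool 6. The log2 fold changes were 3.46 ± 0.60 (SE, edgeR adjusted p = 0.0100) and 3.45 ± 0.76 (SE, edgeR adjusted p = 0.0364). Without the pool as a block neither passed, with adjusted p of 0.0619 for ML13174a and 0.224 for ML065739a (edgeR). Leaving out single embryos ended the call of ML13174a in 1 of 10 cases, that of 3 h replicate 2, and the call of ML065739a in 7.

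The 146 genes together took a small part of the library. Their share of gene reads was between 0.117% and 0.174% in the 4 earlier embryos. It was 1.19%, 1.42% and 1.58% at 4, 4.5 and 5 h in pool 6, and 0.548%, 1.32% and 1.23% in pool 12. The genes were called on these embryos, so the difference is a description. In the embryo 4 h replicate 2 the share lay between the groups. After thinning each embryo to 580587 reads, 116 of the 146 genes had a read in that embryo, against 144 to 146 in the other 5 later embryos and 61 to 76 in the earlier ones.

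The number of genes detected at equal depth did not pass a test that left the pool out. At 580587 reads the later embryos had 7839.0 ± 392.3 genes with a read (SD, n = 6) and the earlier ones 7321.0 ± 322.2 (SD, n = 4). The difference of 518.0 genes had a two-sided exact permutation p of 0.0762, where 0.00952 is the smallest that 6 against 4 embryos allow. Embryos were permuted over both pools, although the earlier ones had 7562 and 7532 genes in pool 6 against 6864 and 7326 in pool 12. No permutation within pools was run, so this p does not decide whether the number changed. With single embryos left out the difference ran from 365.7 to 645.6 genes and the exact permutation p from 0.0238 to 0.167, and it was below 0.05 in 1 of 10 cases, without 4 h replicate 2. Without thinning the difference was 4.8 genes (exact permutation p = 0.995).

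Steps between neighbouring times ask when the genes moved. With time as a factor of 5 levels in these 10 embryos, edgeR called 0 genes in any of the 5 contrasts. At an unadjusted p below 0.05 there were 60 genes (1.02%) from 2 to 3 h, 288 (4.92%) from 3 to 4 h, 356 (6.08%) from 4 to 4.5 h, 146 (2.49%) from 4.5 to 5 h and 847 (14.5%) from 4 to 5 h. The lowest adjusted p was 0.0843, from 2 to 3 h and from 3 to 4 h. By their fitted values the 146 genes had a median log2 fold change of 0.06 from 2 to 3 h, 3.81 from 3 to 4 h, 1.03 from 4 to 4.5 h and 0.31 from 4.5 to 5 h, while the medians of all tested genes lay within 0.02 of 0. The step from 3 to 4 h was the largest, and as these genes were called on the same embryos, this is a description of their order.

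Within the later window the genes that rose tended to be highest at the end. Of the 146, 85 (58.2%) had their highest mean at 5 h, 41 at 4.5 h and 20 at 4 h, while of all tested genes 35.1% were highest at 5 h and 41.0% at 4 h. In pool 6 alone 68 (46.6%) were highest at 5 h and 33 (22.6%) at 4 h, against 31.0% and 34.7% of all tested genes. In pool 12 alone these numbers were 90 (61.6%) and 13 (8.90%), against 35.1% and 40.0%. The 4 h embryo of pool 12 is 4 h replicate 2, whose share of reads in these genes lay between the groups. As the 146 genes were called on these embryos, the order of ages is a description. A slope on hours from 4 to 5 h was fitted to 6207 genes, and 0 passed an adjusted p of 0.05 (edgeR, lowest 0.101), with 964 genes (15.5%) at an unadjusted p below 0.05. Without 4 h replicate 1, the shallow embryo, the same test called 269 genes, and without 4.5 h replicate 1 it called 26. Without 4 h replicate 2 it called 0. With 4 h replicate 1 left out, 4 h replicate 2 was the only embryo of that age. The 269 calls therefore rest on it at 4 h, and whether depth hid them was not tested.

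The genes with the smallest p for a slope show the movement inside this window, with values that did not pass the test. ML202616a had 0, 6.39 and 33.4 CPM at 4, 4.5 and 5 h in pool 6 and 1.38, 59.8 and 290.0 CPM in pool 12 (slope 6.32 ± 0.85 log2 units per h, SE, edgeR adjusted p = 0.101). ML135629a had 1.76, 10.8 and 45.8 CPM and 0.692, 30.5 and 192 CPM, and ML035312a had 8.79, 37.8 and 103 CPM and 4.84, 26.4 and 90.6 CPM. All 3 had higher values at each later time in each pool.

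The downward slopes of smallest p did not pass the test either. ML08507a, which rose from 0.622 ± 0.750 CPM at 2 to 3 h (SD, n = 4), had 77.4, 49.1 and 6.68 CPM in pool 6 and 129, 13.2 and 5.57 CPM in pool 12 (slope -4.15 ± 0.71, SE, edgeR adjusted p = 0.114). It was at its highest at 4 h, so its values at 5 h were already closer to those before. ML01254a had the same order, with 96.7, 83.0 and 26.7 CPM and 214, 27.0 and 12.7 CPM (edgeR adjusted p = 0.142), after 2.66 to 17.6 CPM at 2 to 3 h. ML04054a, at 184 to 351 CPM in the earlier embryos, had 134, 63.9 and 54.4 CPM and 235, 69.5 and 28.8 CPM (edgeR adjusted p = 0.162).

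Few genes were called lower, and these calls ended when certain single embryos were left out. ML033618a had 149 and 135 CPM in the earlier embryos of pool 6 and 155 and 114 CPM in those of pool 12. The later embryos lay between 38.7 CPM in 4 h replicate 1 and 86.5 CPM in 4 h replicate 2, with a mean of 58.8 ± 17.4 CPM (SD, n = 6). It was the only one of the 3 genes called lower whose groups did not overlap (log2 fold change -1.23 ± 0.25, SE, edgeR adjusted p = 0.0249). ML08066a had 819 ± 349 CPM (SD, n = 4) before and 301 ± 134 CPM (SD, n = 6) after, and its fitted log2 fold change was -1.38 ± 0.28 (SE, edgeR adjusted p = 0.0232). For ML42442a the levels were 144 ± 83.7 and 53.9 ± 38.5 CPM, with -1.40 ± 0.33 on the log2 scale (SE, edgeR adjusted p = 0.0466). None of the 3 was called with glmTreat, which tests against a 2-fold change. No gene was called lower without 3 h replicate 1, 3 h replicate 2, 4.5 h replicate 2 or 5 h replicate 1. Leaving out single embryos ended the call in 6 of 10 cases for ML033618a, in 5 for ML08066a and in 8 for ML42442a, and without the pool as a block ML42442a had an adjusted p of 0.295 (edgeR).

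Counts of the 5854 genes were simulated with the fitted spread of these embryos, and 46 to 48 genes were changed at each size. The test found 12.5% of 2-fold, 62.5% of 4-fold, 93.5% of 8-fold and 100% of 16-fold changes. Rises and falls were mixed, and no pool difference or embryo apart from its group was simulated. The percentages are therefore not rates for falls in these embryos. Without 4 h replicate 2, where 45 genes were lower, the 4 of highest earlier level, picked after their values were seen, were ML07464a, ML434310a, ML08066a and ML067114a. ML07464a had between 3059.6 and 5695 CPM in the earlier embryos. It had 4802 CPM in 4 h replicate 2, and between 957 and 2168 CPM in the other 5 later embryos. ML434310a had 916 to 2016 CPM earlier, 1387 CPM in that embryo and 352 to 729.7 CPM in the others. ML067114a had 516 to 1063 CPM earlier, 1074 CPM in that embryo and 216 to 459 CPM in the others. These 3 genes were picked among those called without that embryo, so its place among the values follows from the choice, and with all embryos none of them passed (edgeR adjusted p = 0.241, 0.226 and 0.459).

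Embryos on either side of the comparison give values for the same genes from samples it did not use. The 6 embryos of 5.5, 6 and 6.5 h were set against the 4 embryos of 0 and 1 h with the same test, in which 1363 of 6109 genes changed (22.3%), 878 higher (14.4%) and 485 lower (7.94%). No embryo is shared with the comparison of 4 to 5 h and 2 to 3 h. Of the 146 genes that rose, 137 were tested there and 124 were higher, which is 84.9% of the 146 and 14.1% of the 878. Genes near 0 at 0 to 1 h could enter that test only through the later embryos, so nothing is drawn from the direction of those that entered. ML034630a had a log2 fold change of 9.42 ± 0.54 (SE) and ML26355a one of 7.80 ± 0.60 (SE) in these embryos. The 3 genes that fell were lower there too, ML42442a by a log2 fold change of -2.68 ± 0.41 (SE, edgeR adjusted p = 0.000130). The genes that rose but were lower at 5.5 to 6.5 h than at 0 to 1 h were 2, ML03885a and ML22304a.

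The lists from these other embryos were then read in the 10 embryos of 2 to 5 h. The 485 genes lower at 5.5 to 6.5 h took 9.13%, 8.75%, 8.61% and 7.50% of gene reads in the embryos of 2 and 3 h of pool 6 and then pool 12. They took 6.64%, 6.87% and 5.88% at 4, 4.5 and 5 h in pool 6 and 7.04%, 6.23% and 3.51% in pool 12. The groups did not overlap, with the lowest share in 5 h replicate 2. Of 474 of these genes tested between 2 to 3 h and 4 to 5 h, 325 (68.6%) had a negative log2 fold change and the median was -0.24, against 0.05 for all tested genes, and 3 were called lower and 2 higher. That is 0.633% and 0.422% of them, against 0.0512% and 2.49% of all tested genes. At an unadjusted p below 0.05, 49 (10.3%) were lower and 22 (4.64%) higher, against 3.57% and 9.72% of all tested genes.

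The 878 genes higher at 5.5 to 6.5 h took 1.75%, 1.71%, 1.17% and 1.29% of gene reads in the earlier embryos. In the later ones they took 2.77%, 3.57% and 3.71% in pool 6 and 1.76%, 2.83% and 5.24% in pool 12. The 4 h embryo of pool 12 was the lowest of the later embryos, hardly above the 2 h embryo of pool 6. Of the 878 genes 575 passed the filter on low counts at 2 to 5 h. Of these 575, 124 (21.6%) were called higher and 0 lower (edgeR), against 2.49% and 0.0512% of all tested genes. At an unadjusted p below 0.05, 272 (47.3%) were higher and 0 lower, against 9.72% and 3.57% of all tested genes. Members near 0 at 2 to 3 h could pass only through 4 to 5 h and could not be called lower, so no direction is read from these counts.

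**Figure D3:**
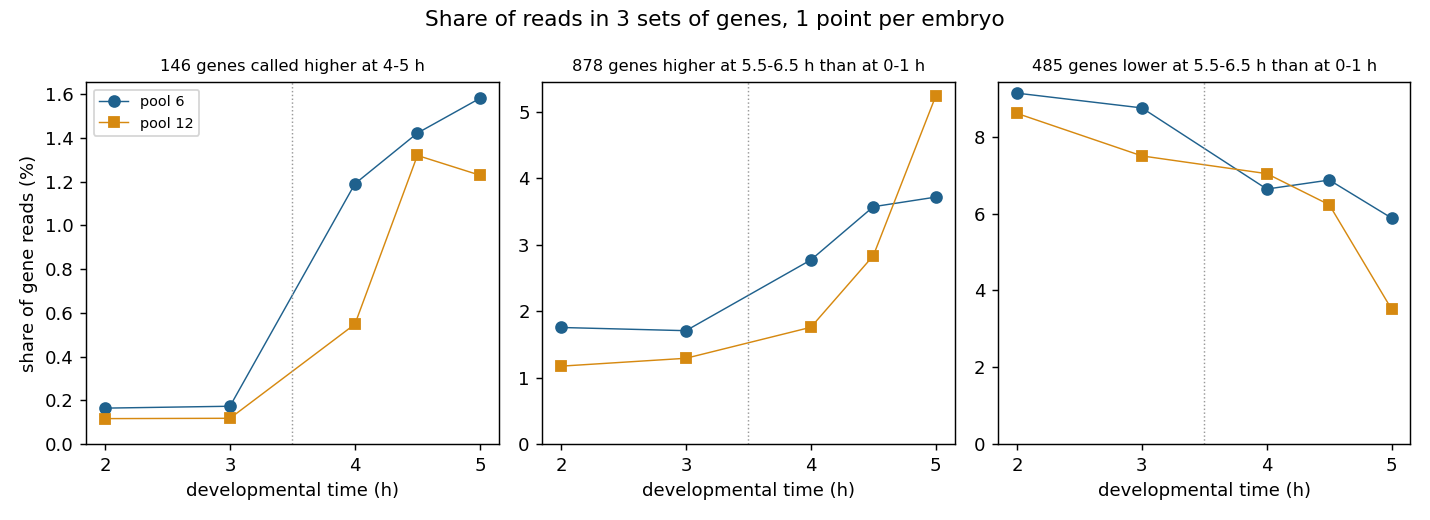
Share of gene reads, in percent, taken by 3 sets of genes in each embryo from 2 to 5 h, with circles for pool 6 and squares for pool 12. The first set was called on these embryos and the other 2 sets on embryos of 0 to 1 h and 5.5 to 6.5 h. The first share is 0.548% in 4 h replicate 2 and 1.19% to 1.58% in the other later embryos, and the third falls to 3.51% in 5 h replicate 2.

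After 5 h the genes that rose went different ways. Levels over the whole series are means of 8 windows of time in 38 embryos on a TMM scale of their own, so they differ a little from the values above. The median of the 146 genes was 0.796 CPM at 0 to 1 h, 0.775 at 2 to 3 h and 30.5 at 4 to 5 h, then 49.2 at 5.5 to 6.5 h, 43.3 at 8 to 9 h and 30.0 at 20 h. The window of highest mean was 4 to 5 h for 27 genes (18.5%), a later one for 113 (77.4%) and 0 to 1 h for 6. Of all tested genes 5.96% were highest at 4 to 5 h, 57.8% later and 14.5% at 0 to 1 h. At 8 to 9 h, 38 genes (26.0%) were below 0.5 times their mean of 4 to 5 h. Another 64 (43.8%) were within 2-fold of it and 44 (30.1%) were above 2 times. Among all tested genes these shares were 13.5%, 72.4% and 14.0%. The 146 genes were called for higher values at 4 to 5 h than at 2 to 3 h, in embryos that also enter these means. Their windows of highest mean and their ratios to 4 to 5 h are therefore shaped by that choice. The difference from all tested genes is a description.

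The genes that dropped most steeply were picked by the ratio of their 4 to 5 h mean to their 8 to 9 h mean. Their low values at 8 to 9 h follow from that choice. Among genes with at least 50 CPM at 4 to 5 h on the scale of the 10 embryos, where ML056943a had 57.1 CPM, that gene had the largest ratio of the 4 to 5 h to the 8 to 9 h mean, with 49.4 against 1.06 CPM on the scale of the series. ML08507a, below that limit with 46.8 CPM, had a larger ratio (55.8). ML25401a had 63.7 CPM at 4 to 5 h, 80.7 at 5.5 to 6.5 h and 1.74 at 8 to 9 h. ML32213a had 59.5 CPM at 4 to 5 h, 16.4 at 5.5 to 6.5 h and 2.39 at 8 to 9 h. All 3 had a mean of 0 CPM at 20 h. In all 10 of the 146 genes had means below 0.1 times that of 4 to 5 h at 8 to 9, 11 to 13 and 20 h, which is 6.85% of them and 0.598% of all tested genes.

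Other genes had higher levels later. Under the same limit, the 3 genes with the largest ratio of a later window to 4 to 5 h were ML114623a, ML042711a and ML205612a. ML114623a had 6.15 CPM at 0 to 1 h, 63.7 at 4 to 5 h, 133 at 7 to 7.5 h, 322 at 8 to 9 h, 2066 at 11 to 13 h and 3581 at 20 h. Its highest later window was 56.2 times the mean of 4 to 5 h. ML042711a went from 60.3 CPM at 4 to 5 h to 425 at 8 to 9 h and ML205612a from 44.3 to 297 CPM at 11 to 13 h. At 4 to 5 h these 3 genes rose from 2 to 3 h with log2 fold changes of 3.90 ± 0.68, 5.67 ± 1.28 and 4.46 ± 1.00 (SE, edgeR adjusted p = 0.0102, 0.0404 and 0.0397). Leaving out single embryos ended the call in 2, 7 and 8 of 10 cases, and ML042711a and ML205612a were not called with glmTreat (adjusted p = 0.0613 and 0.0667).

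**Figure D4:**
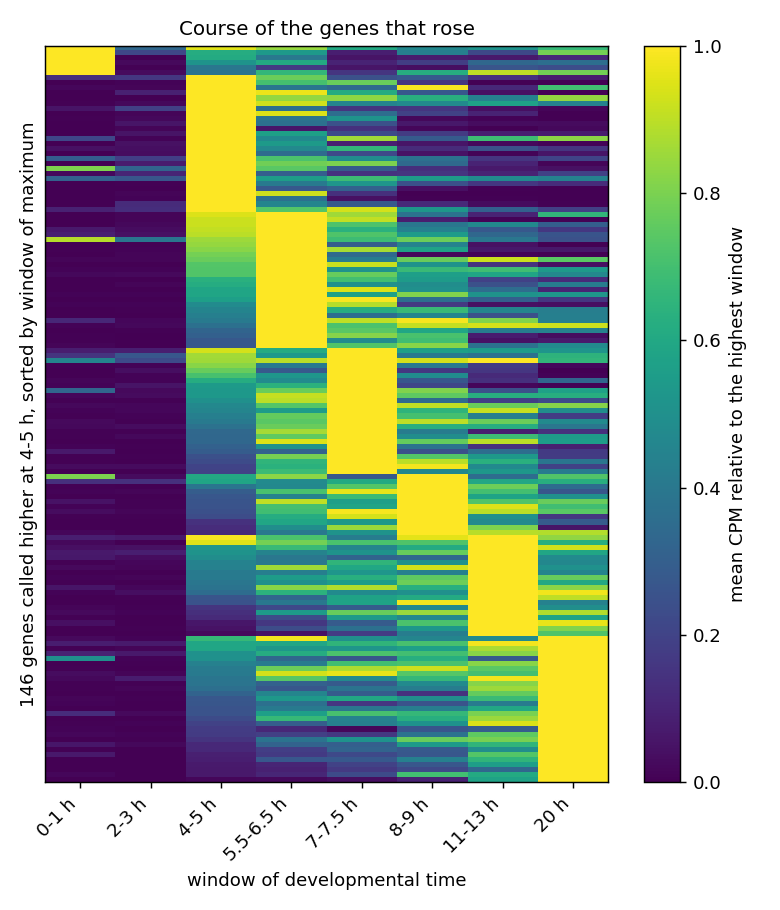
Mean CPM of each of the 146 genes that rose, in 8 windows from 0 to 20 h, as a fraction of its highest window. Rows are genes sorted by the window of their maximum, and 10 h is left out. The 4 to 5 h column holds the maximum of 27 genes, and 113 genes have it in a later window.

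A small group of the genes that rose had been at a higher level before. In 6 of the 146 genes (4.11%) the mean of 0 to 1 h was the highest of the 8 windows. This share was 14.5% among all tested genes, whose median at 0 to 1 h was 34.9 CPM. The 6 genes were chosen by a rise from 2 to 3 h to 4 to 5 h. Leaving out single embryos ended the call of that rise in 8 of 10 cases for ML01791a and ML09258a, in 7 for ML40988a, in 5 for ML20851a and ML22304a, and in 4 of the 6 cases in which ML03885a was tested. With glmTreat ML20851a and ML22304a were called and the other 4 were not. ML22304a had 78.6 and 97.1 CPM at 0 and 1 h in pool 6 and 78.7 and 97.1 CPM in pool 12. Its mean was then 0.389 CPM at 2 to 3 h, 53.9 at 4 to 5 h and 4.61 at 7 to 7.5 h. All 4 embryos of 0 and 1 h thus had this RNA at a high level, and the 4 embryos of 2 and 3 h together had 3 reads.

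ML03885a went from 36.9 CPM at 0 to 1 h to 0.271 CPM at 2 to 3 h and back to 14.5 CPM at 4 to 5 h, and ML20851a from 59.9 to 1.42 and 30.7 CPM. ML40988a had 65.2, 1.84 and 25.1 CPM in the same windows. In ML01791a and ML09258a the dip was shallower, with 56.8, 12.0 and 35.1 CPM and 80.6, 27.0 and 77.1 CPM. In each of the 6 genes the mean was also lower at 7 to 7.5 h than at 5.5 to 6.5 h. At 4 h replicate 2 and 4.5 h replicate 1 ML03885a had 0.692 and 1.47 CPM and ML22304a 1.38 and 5.90 CPM, against at least 21.1 and 57.2 CPM in the other 4 later embryos. The rise of ML22304a passed the test with all embryos at an adjusted p of 0.0206 (edgeR) and in neither pool alone.

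**Figure D5:**
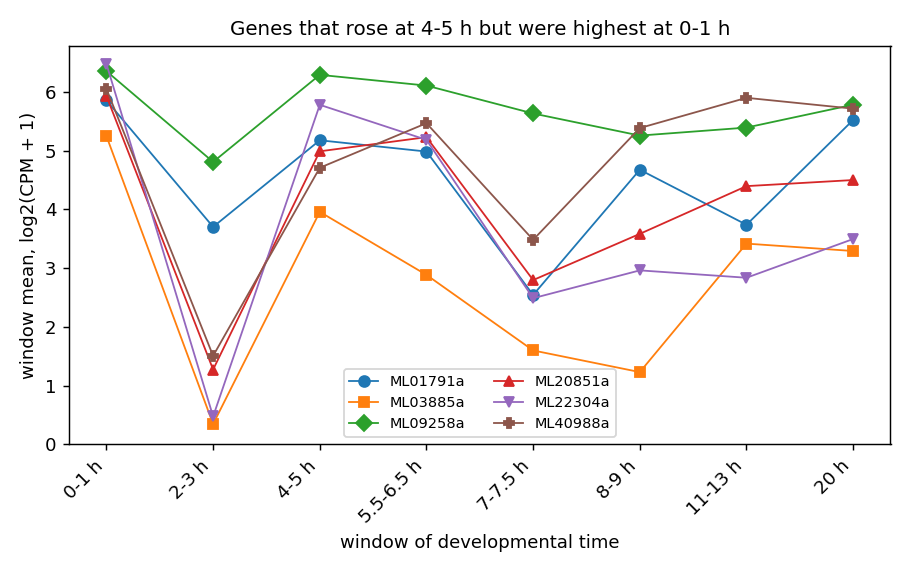
Mean level of the 6 genes that rose from 2 to 3 h to 4 to 5 h and had their highest mean at 0 to 1 h, as log2(CPM + 1) in 8 windows of developmental time. Each line is 1 gene. The lines dip at 2 to 3 h and are lower at 7 to 7.5 h than at 5.5 to 6.5 h, and the first dip runs from 87.9 to 0.389 CPM in ML22304a.

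Some of the genes that rose have neighbouring IDs, a pattern looked at after the values were seen. IDs that share the 4 digits after ML and differ by 1 in the number that follows were taken as neighbours, and the position of these gene models in a genome was not analysed here. Of 77 tested neighbours of the 146 genes, 12 (15.6%) were themselves among the 146, against 2.49% of all tested genes, and they form 6 pairs. Leaving out single embryos ended the call in 8 of 10 cases for ML048618a and ML10593a and in 4 for ML08507a. For ML03986a it did so in 5 of the 6 cases tested, and for the other genes of the pairs in at most 3 of 10. ML048618a, ML10593a and ML03986a were not called with glmTreat (adjusted p = 0.146, 0.112 and 0.0618). In the pair ML08506a and ML08507a both genes were without a read at 0 to 1 h. ML08506a had 69.1 ± 18.8 CPM at 4 to 5 h (SD, n = 6) and ML08507a 46.8 ± 49.2 CPM. From 4 to 5 h ML08506a had 45.7 and 68.8 CPM in pool 6 and 83.7 and 55.2 CPM in pool 12, where ML08507a had 77.4 and 6.68 CPM and then 129 and 5.57 CPM. At 4.5 h ML08506a had 64.4 and 97.1 CPM and ML08507a 49.1 and 13.2 CPM. From 4 to 4.5 h the values of the pair went opposite ways in both pools, and from 4.5 to 5 h they did so in pool 6 and were both lower at 5 h in pool 12. In another pair, ML02211a and ML02212a were both highest at 20 h, with 79.0 and 293 CPM. That window was the highest for 19.9% of the 146 genes and 17.9% of all tested genes. ML08506a and ML08507a were both highest at 4 to 5 h, and ML218918a and ML218919a at 7 to 7.5 h. The window of highest mean differed between ML03986a and ML03987a, between ML048617a and ML048618a, and between ML10592a and ML10593a. Neighbours can share reads where gene models overlap or are close copies, and this was not tested.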

How the data were processed

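Counts of reads per gene model and embryo were deposited by the authors as whole numbers. Per the submitters' processing notes, HTSeq 0.5.4p3, Bowtie2 2.1.0 and CASAVA 1.8 were used. Not given in the sources used here: genome build, annotation, strand setting and treatment of molecular identifiers. Counts are taken as reads and intervals cover counting error only. Close copies and overlapping genes may share or lose reads. The sample sheet, also deposited by the authors, gives other values, which are no measurements (time and pool index). The 5 summary rows of the table stayed out of library sizes and tests.

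Genes passed filterByExpr in edgeR 4.0.16 (R 4.3.3) with a count minimum of 10, which kept 5854 of 16548. Counts were scaled by TMM and tested by quasi-likelihood with pool and window as terms (median coefficient of biological variation 0.398). P-values were adjusted by Benjamini-Hochberg over all genes tested, and over the 5 stepwise contrasts together. Standard errors are approximate, from the log2 fold change and the F statistic. The pools come from the sample sheet, and same-pool deviations of different times had a median correlation of 0.243 (7 of 10 over 0.1). DESeq2 1.42.0 was an alternative. The test was checked on simulated data.

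The comparison, the lists and the named-gene rule were chosen with earlier results of these data known. Named genes are the 8 of highest level among those rising from at most 3 reads, the 6 of largest rise among those with at least 10 CPM before, up to 6 largest falls without overlap, the 3 most abundant falls, 3 slopes each way within 4 to 5 h, and, among genes with at least 50 CPM at 4 to 5 h, 3 each of the largest later drop and later rise. Exceptions are marked in the text. No stepwise contrast gave a called gene to name. Function lists were not built, as 0 of 16548 IDs matched the 19625 genes of the RefSeq table.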

Additional observations from a re-analysis of the deposited data

Results flagged for a closer look

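In 56 checks of single embryos against the rest of their group, 6 values stood apart by Dixon's criterion, which flags about 1 in 20 groups by chance. That rate assumes normal values of 1 kind, whereas the later group mixes 4, 4.5 and 5 h. Among the 6 embryos of 4 to 5 h, 5 h replicate 2 was lowest in the share of reads in the 485 genes lower at 5.5 to 6.5 h than at 0 to 1 h, with 3.51% against 5.88% in the next embryo. It was highest in ML202616a with 290.0 CPM (next 59.8), in ML135629a with 192 CPM (next 45.8) and in ML042711a with 281 CPM (next 60.9). The embryo 4.5 h replicate 1 was highest in ML08066a, with 558 CPM against 336 CPM in the next, and lowest in ML25401a, with 36.9 CPM against 73.3 CPM. ML202616a and ML135629a were named for steep slopes within 4 to 5 h, so an extreme value at 5 h follows from that choice. ML042711a also had higher values at each later time in each pool (slope 4.31 ± 1.13, SE, edgeR adjusted p = 0.194).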

How the results depend on the processing

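For 4 to 5 h minus 2 to 3 h the calls were 516 without a filter (479 higher, 37 lower), 91 after thinning (88 higher), 326 with DESeq2 (310 and 16), 483 with all 40 embryos in the fit (420 and 63), 94 in pool 6 alone (93 and 1), 0 in pool 12 alone (0 higher, 0 lower, 478 at an unadjusted p below 0.05), 275 with 4 h left out (233 and 42) and 36 with 2 h left out (36 and 0). Lower genes numbered 0 with glmTreat and 6 with the 5-level time factor. With one embryo left out the calls ran from 68 to 344, the higher genes from 68 to 299 and the lower genes from 0 to 45. With no replicate block, that is without the pool term, 177 genes were called, 174 higher and 3 lower, and of the named genes ML13174a, ML065739a and ML42442a lost their calls. Median-of-ratios scaling gave 148 and total counts 146. For 5.5 to 6.5 h minus 0 to 1 h 2130 genes were called without a filter, 1626 of them higher, and 1241 with no replicate block. Without a filter the slope within 4 to 5 h had 325 calls, the stepwise contrasts 588 and the pool by window test 56, against 0 in each with it. The slope had 0 to 269 calls and the stepwise contrasts 0 to 5 with one embryo left out, and 0 each with no replicate block. The difference in detected genes ran from 365.7 to 645.6 with one embryo left out, and was 363.2 for at least 3 reads and 4.8 without thinning. The cause of these shifts was not tested. Alternatives for the share of reads, the course and the filter of the pool by window test were added after the data were seen, and the share and course moved by less than the limits set for a change. Of 1135 values for 52 results on named genes under the alternatives 0 changed sign, 255 lost and 26 gained a call, and in pool 12 alone 42 lost it. Depth limits low genes most in 4 h replicate 1.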
